A study of Mus musculus with 8 samples.

Results

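Costameres are the rib-like attachment sites along the side of a heart muscle cell, where integrins in the membrane hold the contractile apparatus to the surrounding laminin. The H3K27Ac peaks described here belong to 9 of their genes, the tensins *Tns1*, *Tns2* and *Tns3*, the integrin subunits *Itga7* and *Itgb1*, vinculin (*Vcl*), the talins *Tln1* and *Tln2*, and integrin-linked kinase (*Ilk*). A peak was given to a gene when the curated RefSeq transcription start nearest to its centre was that of the gene, in the mouse build mm10. This gave 75 of the 45987 peaks of the study, of which 15 belonged to *Tns1*, 3 to *Tns2*, 21 to *Tns3*, 1 to *Itga7*, 13 to *Itgb1*, 9 to *Vcl*, 1 to *Tln1*, 12 to *Tln2* and 0 to *Ilk*. The genes were chosen by name with results of these data known, and *Tns1* was chosen by the difference between the groups itself, so that every difference below is a description and none was tested.

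The data were ChIP-Seq of H3K27Ac, a histone acetylation found at active promoters and enhancers, in heart ventricles at postnatal day 7 (P7). The 2 control samples were Arid1a f/f, in which *Arid1a* carries loxP sites and is intact. The 2 mutant samples were aMHC-Cre; Arid1a f/f, called *Arid1a cKO*, in which both floxed copies can be deleted wherever the Cre is made, and an input library was made for each of the 4 samples. The lines were kept on a C57B/6 J background. Both groups carry the floxed alleles, and only the mutants carry the Cre, so that an effect of Cre alone cannot be told apart from the loss of *Arid1a*. *Arid1a* encodes a DNA-binding subunit of the SWI/SNF chromatin remodelling complex. The aMHC promoter drives Cre in cardiomyocytes, while whole ventricles also hold fibroblasts, endothelial cells and others in which the gene stays intact. In such tissue fewer cells of a type and less acetylation per cell cannot be told apart.

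For each peak the file gave 1 log2 mean of normalized reads per group, and no values of single samples. Values below are these means as normalized reads, followed by the log2 difference of *Arid1a cKO* minus control. No error between replicates could be given, and the depth of the libraries is unknown. A peak was counted as lower or higher when the difference was at least 2-fold in size, a log2 difference of 1. Among the 45984 peaks that could be counted in this way, 10.6% were lower and 4.57% were higher, and 1.59% were lower by at least 8-fold. Over all peaks the median difference was 0.01. A group mean of 3 normalized reads or fewer was treated as a floor, and a fold against it is a lower bound.

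As a check of the labels, the peak over the *Arid1a* start held 1607 normalized reads in control hearts and 1663 in *Arid1a cKO* hearts. Acetylation at that start does not report whether the floxed exons were removed. Summed over the peaks of a gene, 3 of the 7 cardiomyocyte marker genes with peaks were higher in *Arid1a cKO* hearts and 4 lower. *Myh6* held 3591 normalized reads in control and 3929 in *Arid1a cKO* hearts, and *Tnnt2* 1486 and 1083. All peaks of the cardiomyocyte list summed to 13974 in control and 13335 in *Arid1a cKO* hearts.

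Tensins are cytoplasmic adaptors that bind actin filaments and the tails of beta integrins, and tensin 1 is abundant in heart muscle. *Tns1* lies on the minus strand at chr1:73910232-74124548 and spans 214 kb, with 1 curated start at its right end. Of its 15 peaks, 7 were lower by at least 2-fold in *Arid1a cKO* hearts, where 10.6% of all peaks were, and 0 were higher. The median difference was -0.42. By at least 8-fold, 5 of the 15 were lower, and 0 of the 60 peaks of the other genes, beside 1.59% of all peaks. These values chose the gene, and nothing is read from the shares. The 7 lower peaks were not spread along the gene. All 6 peaks whose centres lay within 30 kb of the start were lower, and 1 of the other 9 was. The 30 kb limit was set after the values had been seen.

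The peak over the *Tns1* start (chr1:74123266-74125312) held 79.3 normalized reads in control hearts and 18.0 in *Arid1a cKO* hearts, a difference of -2.14. The start peak was the least reduced of the 6. Going into the gene, the next peak, centred 2.56 kb from the start (chr1:74121164-74122813), held 47.5 in control and 3.78 in *Arid1a cKO* hearts, a 12.6-fold lower level.

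The peak at 5.87 kb (chr1:74117264-74120095) held 91.1 normalized reads in control hearts and 0.946 in *Arid1a cKO* hearts. The mutant value is under the floor, so that the peak was at least 30.4-fold lower. How far below the floor it went cannot be given. The value 0.946 was the lowest in the mutant column and was shared by 279 peaks.

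The peak at 11.95 kb (chr1:74111114-74114073) held 88.6 normalized reads in control hearts and 8.06 in *Arid1a cKO* hearts, which is 11.0-fold lower. The peak at 17.8 kb (chr1:74103532-74109892), with 6361 bp the widest of the 6, held 222.9 and 18.5, which is 12.04-fold lower. It holds 2 predicted starts of shorter *Tns1* transcripts. The peak at 28.6 kb (chr1:74094962-74096916) was under the floor in *Arid1a cKO* hearts as well, with 55.3 in control and 0.946 in the mutants, at least 18.4-fold lower.

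Summed over the 6 peaks and their 17.8 kb of sequence, control hearts held 585 normalized reads and *Arid1a cKO* hearts 50.2, or 54.3 with the means under the floor raised to 3. Per kb these are 32.8, 2.82 and 3.05. With the raised means the mutants held 9.29% of the control sum. The 6 peaks are direct neighbours in the table and span 30.4 kb. Each was lower by at least 4-fold. Among the 1446 runs of such peaks, where a lone peak also counts as a run, only 1 was longer, with 8 peaks. At the 2-fold limit, 9 of 3553 runs were longer than 6 peaks. Counted by gene, 33 of 15761 genes with a peak were nearest to at least 7 lower peaks, *Tns1* among them. The number of peaks per gene was not allowed for. The differences themselves chose *Tns1*, and nothing is read from its place in these counts.

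**Figure D1:**
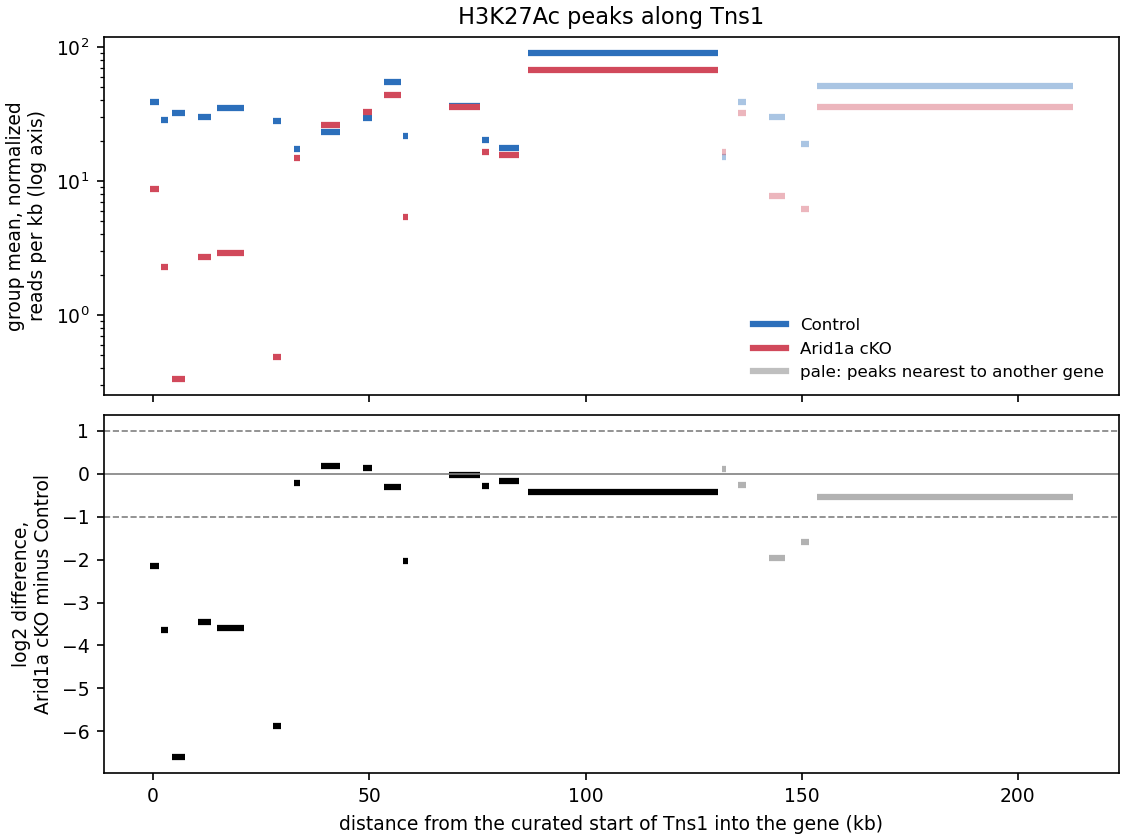
H3K27Ac along *Tns1*. Each bar is 1 peak drawn at its width, against the distance of its position from the curated start in kb. The upper panel gives the group means in normalized reads per kb of peak on a log axis, control in blue and *Arid1a cKO* in red, and the lower panel the log2 difference of the means, with dashed lines at 1 and -1. Pale bars are the 5 peaks inside the gene whose centre lies nearest to another gene's start. The 6 peaks within 30 kb of the start lie at -2.14 or below, a pair of them drawn at deposited values that are under the floor in *Arid1a cKO* hearts, while the wide domain centred at 109 kb lies at -0.42.

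The lower part of *Tns1* ended between a pair of neighbouring peaks. No more than 2935 bp separate the peak at 28.6 kb from the next one at 33.2 kb, which held 23.1 normalized reads in control and 19.97 in *Arid1a cKO* hearts. The peaks at 41.0 kb and 49.6 kb had differences of 0.18 and 0.13. The peak at 55.3 kb, which covers 2 predicted starts, held 219.8 and 177.3.

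Beyond it, a single one of the peaks nearest to the *Tns1* start was lower, at 58.3 kb (chr1:74065642-74066799), with 25.1 normalized reads in control and 6.19 in *Arid1a cKO* hearts, 4.06-fold lower. Its neighbours did not share that difference. The peak at 71.9 kb held 257.8 and 254.2, the peak at 76.8 kb had a difference of -0.28 and that at 82.3 kb one of -0.17.

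Most of the acetylation nearest to the *Tns1* start lay in a domain of 43.7 kb (chr1:73993995-74037742), centred 109 kb into the gene. It held 3956 normalized reads in control and 2957 in *Arid1a cKO* hearts, a difference of -0.42, and 9 predicted *Tns1* starts fall inside it. Per kb it held 90.4 and 67.6 normalized reads, against 38.8 and 8.79 over the curated start. The domain therefore kept 74.7% of the control level, and the start peak 22.7%. Summed over all 15 peaks *Tns1* kept 70.1%, from 5343 to 3745 normalized reads over 87.8 kb.

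A further 5 peaks lie inside *Tns1* but nearest to the start of the noncoding gene *6030407O03Rik*, and were not counted with *Tns1*. The widest of them, of 59.2 kb (chr1:73911883-73971091), held 3040 normalized reads in control and 2106 in *Arid1a cKO* hearts, a difference of -0.53. A peak 144 kb from the start held 113.8 and 29.4, and one at 151 kb held 35.8 and 11.9, so that 2 of the 5 were lower by at least 2-fold. The other two had differences of -0.26 and 0.12. With them, 9 of the 20 peaks over the gene were lower, where 10.6% of all peaks were, and nothing is read from this count.

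Outside the gene the next peak beyond the start stood 101.7 kb away, nearest to the start of *Arpc2*, an actin nucleation subunit. It and the following pair had differences of 0.26, -0.16 and 0.02. *Rufy4* is transcribed away from *Tns1* on the other strand, and 2 predicted starts of *Rufy4* lie under the *Tns1* start peak. Acetylation there cannot be divided between the genes.

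The sequence below shows 300 bases of the *Tns1* peak at 5.87 kb, the stronger in control hearts of the pair under the floor, read from the GRCm38.p6 assembly on the plus strand. It lies in an intron of *Tns1* and outside every annotated exon. It is centred on a match to AAGGTCA, the half-site known to be bound by estrogen-related receptors, which drive maturation genes in heart muscle. Capitals mark matches on either strand to AAGGTCA, to the E-box CAGGTG known from ZEB and SNAI factors, or to CATTCC known from TEAD factors.
*Tns1* peak at 5.87 kb, chr1:74117997-74118296: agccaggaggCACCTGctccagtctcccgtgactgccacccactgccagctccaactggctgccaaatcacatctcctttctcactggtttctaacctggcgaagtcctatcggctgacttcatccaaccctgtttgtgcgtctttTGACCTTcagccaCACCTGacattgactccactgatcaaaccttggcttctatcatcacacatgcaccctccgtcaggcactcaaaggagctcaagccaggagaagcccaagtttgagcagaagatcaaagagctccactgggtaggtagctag

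Among the 13 peaks of the 9 genes that were lower by at least 2-fold, AAGGTCA matched 8 times. Of these, 7 are shown, with 12 bases on each side, in the direction in which the half-site reads, and capitals mark the half-site. The bases before the half-site are shown because these receptors are known to read them as well. They were not scored, so the stretches are half-site matches only. The stretch at chr1:74095988-74096018 overlaps an annotated exon, and the others shown do not.
*Tns1* 5.87 kb, chr1:74118131-74118161, minus strand: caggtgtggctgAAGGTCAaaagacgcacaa
*Tns1* 11.95 kb, chr1:74111768-74111798, plus strand: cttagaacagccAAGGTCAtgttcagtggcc
*Tns1* 28.6 kb, chr1:74095048-74095078, plus strand: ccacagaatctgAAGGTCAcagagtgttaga
*Tns1* 28.6 kb, chr1:74095988-74096018, plus strand: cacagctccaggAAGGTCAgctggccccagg
*Tns2* 5.53 kb, chr15:102108559-102108589, plus strand: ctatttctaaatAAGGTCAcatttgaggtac
*Tln2* 29.9 kb, chr9:67529754-67529784, plus strand: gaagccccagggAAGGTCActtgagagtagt
*Tln2* -29.96 kb, chr9:67588734-67588764, minus strand: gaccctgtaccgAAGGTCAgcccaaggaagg

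AAGGTCA was found in 3 of the 7 lower *Tns1* peaks, in 4 of the other 8, and in 36.6% of all peaks. Per kb the matches came to 0.264 in the lower *Tns1* peaks, 0.232 in the others and 0.230 over all peaks. CAGGTG was found in 6 of the 7 lower *Tns1* peaks and in 69.3% of all peaks, at 0.896 and 0.776 matches per kb. CATTCC was found in 5 of the 7 and in 65.4% of all peaks, at 0.633 and 0.612 per kb. The densities in the lower *Tns1* peaks were thus close to those of the whole table.

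The MEF2 box, the AT-rich site of the MEF2 factors of muscle, was searched by its strict consensus of 10 letters and had 0 matches in the 13 lower peaks. It was found in 8 of the 75 peaks and in 7.56% of all peaks. Of the 8 peaks, 5 belonged to *Itgb1*. The CArG box, the serum response factor site of muscle and cytoskeletal genes, was found in 17 of the 75 peaks and in 11.6% of all peaks, or 0.108 and 0.0541 matches per kb. For 44 further costamere and focal adhesion genes, listed below as partners, it was found in 22.2% of peaks, at 0.0803 per kb. Of the 27 matches in the 75 peaks, 5 lie in the 43.7 kb *Tns1* domain and 4 in 1 *Vcl* peak. Of the lower *Tns1* peaks 1 held the CArG box, that at 11.95 kb, with 2 matches. A match is a run of letters and not a measured site, and the absence of one says only that these letters are not in the peak.

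The 250 bases before the *Tns1* start hold 30 CpG and 3 matches to GGGCGG on either strand, the GC box known from SP factors, and 74.4% of the bases are G or C. Over all 32851 RefSeq promoters of the same length the median is 6 CpG, and 32.7% hold GGGCGG. Of the 9 genes, 7 had an entry among these promoters. *Tns3* and *Vcl* each hold 4 matches and *Tns2* and *Tln1* hold 0.

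The starts of the costamere genes differed in level. Levels are compared here per kb of peak. The peak over the *Itgb1* start was the highest, at 252 normalized reads per kb in control and 277.7 in *Arid1a cKO* hearts. *Tns2* followed at 174.6 and 133.2, *Vcl* at 144.5 and 125.8, *Tln1* at 112.3 and 113.1, *Itga7* at 59.2 and 43.3, *Tns3* at 57.4 and 68.7 and *Tns1* at 38.8 and 8.79. *Tns1* had the lowest start of these 7 in both groups. Its start peak was lower by at least 2-fold, as 10.6% of all peaks were, and the other 6 lay between -0.45 and 0.26. The differences themselves chose *Tns1*, so nothing is read from this contrast.

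**Figure D2:**
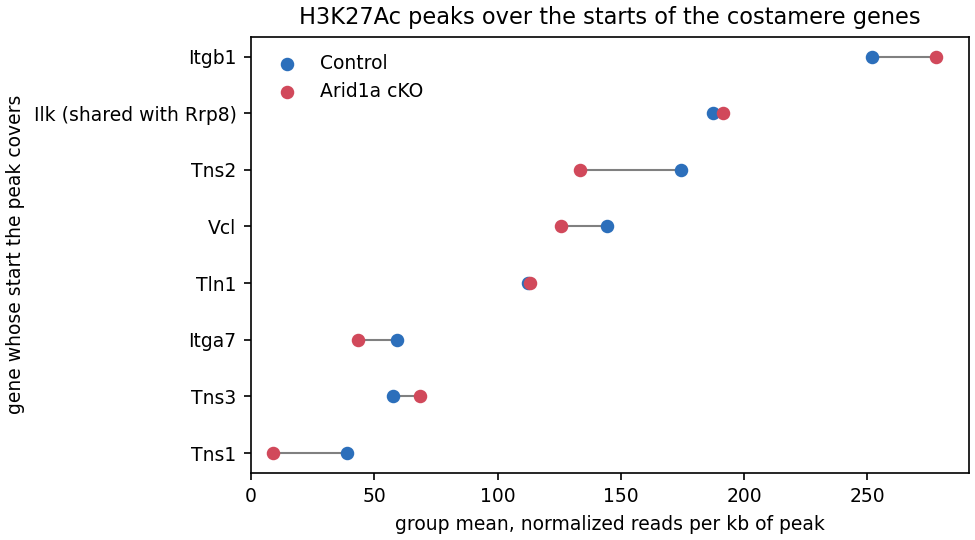
Group means of the H3K27Ac peaks that cover a curated start of a costamere gene, in normalized reads per kb of peak. Blue points are control and red points *Arid1a cKO* hearts, and a grey line joins both means of a gene. *Tns1* is at the bottom, with 38.8 in control and 8.79 in *Arid1a cKO* hearts, and the peak over *Ilk* is the one whose centre lies nearest to the *Rrp8* start.

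*Tns2*, a tensin on chromosome 15, had 3 peaks, all with differences below 0. The start peak (chr15:102097223-102106684) was 9462 bp wide and held 1652 normalized reads in control and 1261 in *Arid1a cKO* hearts, a difference of -0.39. The peak 8.13 kb before the start had a difference of -0.12. A small peak 5.53 kb into the gene (chr15:102107775-102109155) held 32.9 in control and 7.62 in *Arid1a cKO* hearts and was 4.32-fold lower. The *Tns2* start kept 76.3% of its control level, against 22.7% at *Tns1*.

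*Tns3*, the longest of the tensin genes with 233 kb on chromosome 11, had the most peaks and a median difference of 0.23. Of its 21 peaks, 16 or 76.2% had a difference above 0, where 50.6% of all peaks had. Only 18 peaks lie over the gene. A pair of the 21, at 449.1 kb and 465.0 kb, lies beyond its far end, with differences of 0.23 and 0.36. By at least 2-fold 3 were higher, or 14.3% beside 4.57% of all peaks, and 0 were lower, beside 10.6%. The start peak (chr11:8662288-8665189) held 166.6 normalized reads in control and 199.5 in *Arid1a cKO* hearts. The lowest difference in the gene, -0.80, belonged to a peak at 181.6 kb.

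The 3 higher *Tns3* peaks were small in both groups. The peak at 161.5 kb (chr11:8502606-8503471) held 2.73 normalized reads in control, under the floor, and 13.7 in *Arid1a cKO* hearts, so that it was at least 4.58-fold higher. The peak at 126.7 kb held 5.78 and 28.1, which is 4.86-fold higher. The peak 28.8 kb before the start held 3.34 and 12.3, which is 3.68-fold higher. A further pair in the gene ended just short of the limit, at 0.99 and 0.98, with 19.8 and 10.6 normalized reads in control hearts. Away from the start, the strongest peak in control hearts, at 83.5 kb, held 191.3 in control and 153.3 in *Arid1a cKO* hearts. The peak at 196.4 kb held 181.0 and 191.3.

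Integrin alpha 7 and beta 1 form the laminin receptor of the muscle cell surface. *Itga7* had a single peak, of 10009 bp over its start on chromosome 10 (chr10:128929694-128939702), with 592 normalized reads in control and 433.5 in *Arid1a cKO* hearts, a difference of -0.45. *Itgb1*, on chromosome 8, had 13 peaks with a median difference of 0.26. By at least 2-fold, 0 of the *Itgb1* peaks were lower and 0 higher, beside 10.6% and 4.57% of all peaks. Its start peak (chr8:128683969-128688902) held 1243 in control and 1370 in *Arid1a cKO* hearts.

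Upstream of *Itgb1* a series of peaks reached out to 135 kb. The strongest of them, 32.9 kb before the start (chr8:128648969-128656526), held 560 normalized reads in control and 714 in *Arid1a cKO* hearts, a difference of 0.35. The farthest, at 135.3 kb, held 39.1 and 75.6, a difference of 0.95 and so the nearest of the *Itgb1* peaks to the limit. At 79.6 kb the levels were 79.9 and 137.2. The lowest difference, -0.73, stood 90.5 kb before the start, with 17.3 and 10.4. Summed over its 13 peaks and 39.7 kb, *Itgb1* went from 2452 to 2852 normalized reads.

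Talins link the tail of beta integrins to actin and switch integrins to the active state, and talin 2 is the main form of mature heart muscle. *Tln1* had a single peak, over its start on chromosome 4 (chr4:43556947-43564506), with 849 normalized reads in control and 855 in *Arid1a cKO* hearts, a difference of 0.01. *Tln2*, a gene of 343 kb on chromosome 9, had 12 peaks with a median difference of -0.42. Of these, 5 were lower by at least 2-fold, or 41.7% beside 10.6% of all peaks, and 0 higher, beside 4.57%. No peak covered the curated *Tln2* start.

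The lower *Tln2* peaks stood on both sides of the start. Inside the gene, the peak at 130.5 kb (chr9:67427876-67430492) held 172.4 normalized reads in control and 68.6 in *Arid1a cKO* hearts, 2.51-fold lower. The peak at 124.0 kb held 22.01 and 6.19, and the peak at 29.9 kb (chr9:67528461-67531073) 154.3 and 52.3, 2.95-fold lower. Before the start, the peak at 29.96 kb (chr9:67588702-67590627) held 35.0 and 7.57, a 4.63-fold lower level and the largest difference in *Tln2*. The peak 47.5 kb before the start held 117.0 and 53.4, a difference of -1.13.

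The strongest *Tln2* peak in both groups, 23.9 kb before the start (chr9:67579201-67587994), held 639 normalized reads in control and 413 in *Arid1a cKO* hearts, a difference of -0.63. Of the 5 predicted starts, a pair lies under the peak 73.4 kb upstream, which held 191.3 and 166.6. The nearest peak to the curated start, 2.84 kb before it, was small, with 8.94 and 10.9. The highest difference of the gene, 0.62, belonged to the peak at 74.5 kb. Summed over 33.1 kb, the *Tln2* peaks held 1515 and 977 normalized reads, or 45.7 and 29.5 per kb, of which the strongest peak made up the largest part. The other 7 *Tln2* peaks, which stood among the lower ones, had differences between -0.63 and 0.62. A further 5 peaks over the *Tln2* gene lay nearest to another gene's start, while the lower peaks before the start lie outside the gene. When the peaks over each gene were taken instead, the 8 genes other than *Tns1* together had 4 lower peaks, against 6. The share of lower *Tln2* peaks thus depends on the rule for giving peaks to genes.

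**Figure D3:**
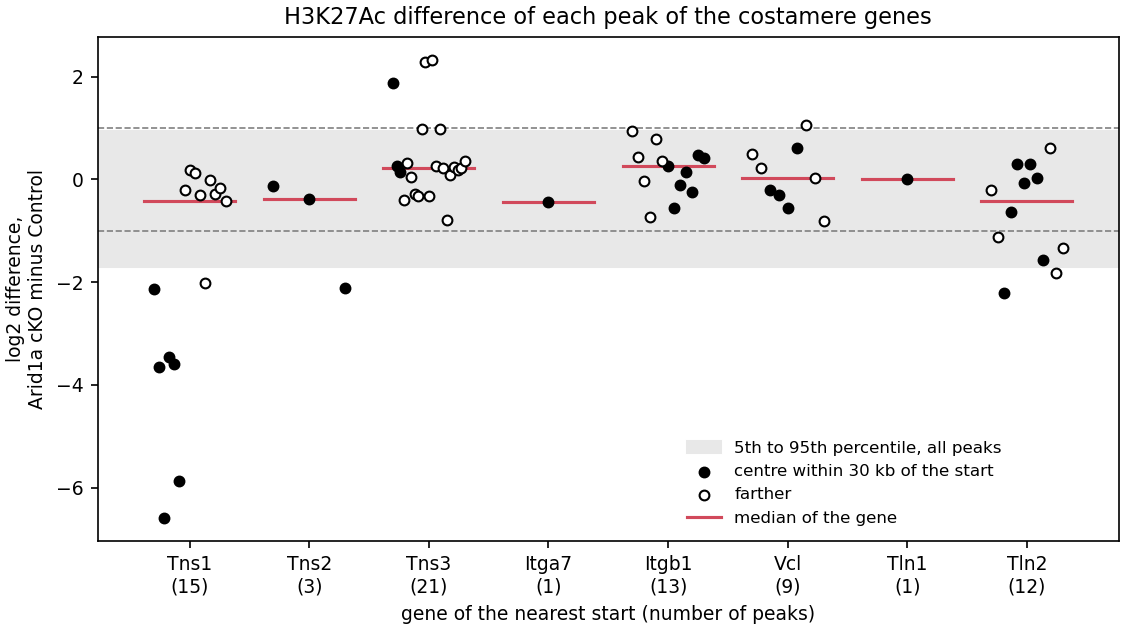
Log2 difference of *Arid1a cKO* minus control for each of the 75 peaks, by gene. Black points have their centre within 30 kb of the start and white points lie farther away, ordered within a gene by their position; red lines are medians, dashed lines mark 1 and -1, and the grey band runs from the 5th to the 95th percentile of all peaks, -1.70 to 0.95. The 6 *Tns1* peaks within 30 kb of the start lie below the band, and the higher peaks belong to *Tns3* and *Vcl*.

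Vinculin binds talin and actin and strengthens the link under load. *Vcl*, on chromosome 14, had 9 peaks with a median difference of 0.02. The start peak (chr14:20928290-20932086) held 549 normalized reads in control and 477.7 in *Arid1a cKO* hearts, a difference of -0.20. The lowest difference, -0.82, belonged to the peak at 54.8 kb, with 29.4 and 16.7. One peak, at 35.0 kb (chr14:20963692-20965151), was higher by at least 2-fold, with 10.5 and 21.9 and a difference of 1.06. Away from the start, the strongest peak in both groups, 36.3 kb before the start, held 202.3 and 237.2. A pair of further peaks over the gene lay nearest to another start.

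Integrin-linked kinase is a scaffold that joins beta integrins to parvin and actin. *Ilk*, a gene of 6.34 kb on chromosome 7, was nearest to 0 peaks because its start lies beside that of *Rrp8*. The peak over both of its curated starts (chr7:105735254-105740530) held 989 normalized reads in control and 1010 in *Arid1a cKO* hearts, a difference of 0.03. Being nearest to *Rrp8*, it is not among the 75.

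Of the 75 peaks together, 13 were lower by at least 2-fold and 4 higher, and the median difference was -0.04. Without *Tns1* the 60 peaks of the other genes held 6 lower and 4 higher peaks, or 10% and 6.67%, with a median of 0.06, beside the 10.6% and 4.57% of all peaks. Of the 13 lower peaks the one nearest to the limit was the *Tln2* peak at -1.13, and the nearest outside it was the *Vcl* peak at -0.82. Among the higher peaks the nearest inside was the *Vcl* peak at 1.06, and the nearest outside was the *Tns3* peak at 0.99. The lower peaks had held between 22.01 and 222.9 normalized reads in control hearts, and the 4 higher ones between 2.73 and 10.5. All 4 higher peaks were among the 25% of all peaks with the lowest overall level.

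**Figure D4:**
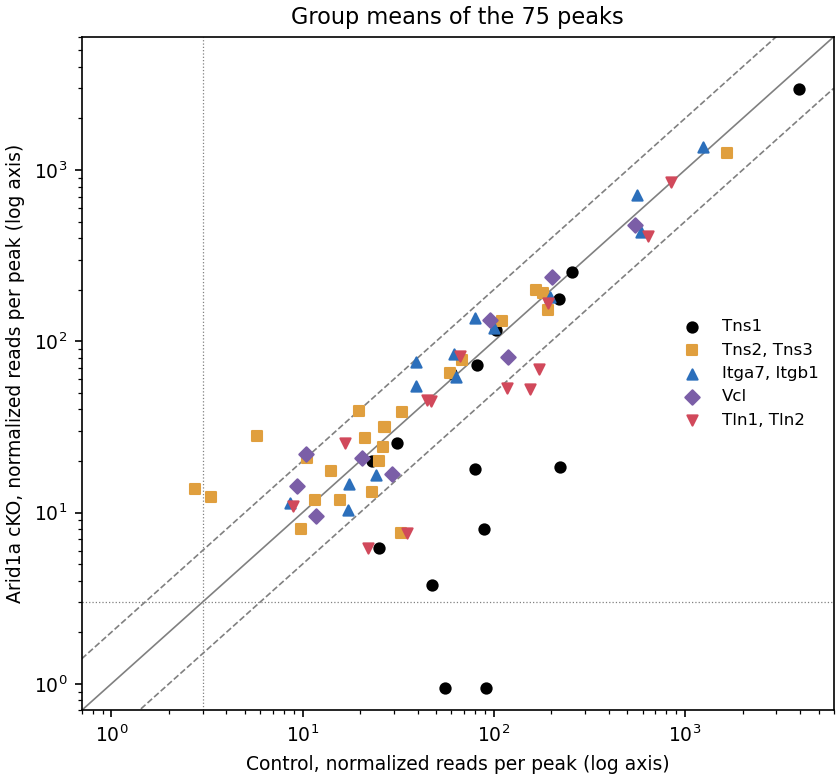
Control against *Arid1a cKO* group means of the 75 peaks, in normalized reads per peak on log axes. Shapes and colours give the genes, the solid line marks equal means, dashed lines a 2-fold difference, and dotted lines the floor of 3 normalized reads. Peaks above 300 normalized reads in control hearts all lie between the dashed lines, and the pair of *Tns1* peaks at the bottom stand at 0.946 in *Arid1a cKO* hearts.

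A partner list of 44 further genes of costameres and focal adhesions, with other integrins, laminins, parvins, PINCH and kindlin proteins, alpha-actinins and LIM proteins, was nearest to 356 peaks. Of these, 22 were lower by at least 2-fold and 17 higher, or 6.18% and 4.78% beside 10.6% and 4.57% of all peaks, and the median difference was -0.02. The lower peaks belonged to 14 genes and the higher to 12, with 6 genes in both.

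Among partner peaks with an overall mean of at least 20 normalized reads, the largest difference downwards was at *Lamb1*, a laminin chain, where a peak 14.6 kb into the gene (chr12:31277769-31282094) held 203.7 in control and 41.4 in *Arid1a cKO* hearts. A peak of *Kank2*, a talin-binding protein, held 71.0 and 14.7 (chr9:21787111-21789286). A peak of *Parvb*, beta-parvin, held 118.6 and 28.4 (chr15:84244128-84246462). These were 4.92-fold, 4.82-fold and 4.17-fold lower. Upwards, the largest were peaks of *Actn1*, an alpha-actinin of nonmuscle cells, with 15.0 and 37.5, of *Lama2*, the laminin chain of muscle basement membrane, with 20.1 and 43.1, and of *Dlc1*, a tensin-binding protein, with 44.3 and 89.9.

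Peaks of marker genes of other cells in the ventricle had these values in the same groups, to be read beside the 4.57% higher and 10.6% lower of all peaks. The fibroblast list, with peaks at 7 of 7 genes, had 49 peaks of which 9 were higher and 0 lower by at least 2-fold, or 18.4% and 0%, with a median difference of 0.46 and summed levels of 3641 and 4960 normalized reads. The endothelial list, 7 of 7 genes, had 51 peaks, 1 higher and 3 lower, a median of 0.09, and sums of 14840 and 15034. The smooth muscle and pericyte list, 6 of 6 genes, had 18 peaks, 2 higher and 0 lower, a median of 0.16, and sums of 1681 and 2142. The macrophage and leukocyte list had 4 peaks at 3 of 5 genes, sums of 105.2 and 153.6, and no peak nearest to *Adgre1* or *Lyz2*. The cardiomyocyte list, 7 of 8 genes without *Actc1*, had 29 peaks, 3 higher and 2 lower, and a median of -0.12. Hepatocyte markers, which the heart should lack, had no peak nearest to *Alb* or *Fgb*. Of the 12 peaks nearest to *Apoa1* or *Ttr*, 0 were higher and 3 lower, or 0% and 25%, with a median of -0.47. The medians of the fibroblast, the endothelial, the smooth muscle and the macrophage lists were above 0. *Itgb1* had 8 differences above 0 and 5 below 0. The higher peaks of *Tns3* and *Vcl* were picked by their values, so their direction is not compared with the marker lists. The part of cell composition in the peaks of these genes was not tested. The 6 *Tns1* peaks within 30 kb of the start had a median of -3.62, also with the means under the floor raised to 3. These peaks were picked by their values, so no comparison with the marker lists is drawn, and the part of cell composition was not tested.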

How the data were processed

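ChIP-Seq of H3K27Ac and inputs from P7 ventricles was grouped by genotype and antibody per the labels, with 2 samples in each of 4 groups. Per the submitters' processing notes and the study's methods, the authors aligned reads with BWA 0.7.17-r1188 (build mm10), called broad peaks with HOMER against merged inputs, kept peaks seen in at least 2 samples, and used DiffBind 2.12.0 with DESeq2 1.24.0. The deposited values used here are log2 concentrations, that is log2 means of normalized reads per peak, 1 for each group and 1 for both groups. Columns of per-sample values numbered 0, so depth is unknown and no test, interval or replicate error could be computed. The authors' fold changes, p-values and FDRs in it, which hold their own comparison, were not used. How libraries were scaled and inputs subtracted could not be read from the deposited values. Another scaling could move the differences of all peaks, by amounts that are not known and need not be equal.

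Peaks were given to the nearest start of the 45756 curated RefSeq transcripts of GRCm38.p6, the assembly of mm10, without the 7 peaks on unplaced sequences. The effect is the *Arid1a cKO* minus control log2 concentration. Motifs were counted on both strands with Python 3.11.15 and pysam 0.24.0, and steps were tested on simulated data. The genes, lists and motifs were chosen with earlier results of these data known. All *Tns1* peaks are described, and for the other genes the start peak, the strongest peak, those past 2-fold, and the lowest and highest differences. Partner peaks named are the 3 largest differences in each direction above a mean of 20 normalized reads. Some items are not reported here. Alternatives were thresholds of 1.5-fold and 4-fold, centring, an added count of 3, a filter on low peaks, and other rules for giving peaks to genes.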

Additional observations from a re-analysis of the deposited data

How the results depend on the processing

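No paired analysis was possible because the table holds 1 mean per group and no values of single samples. For the same reason no replicate could be left out, and how far 1 heart decides any value is unknown. The other alternatives gave 89 values, of which 65 stayed within 1.5 times the reported count or within 0.1 of the reported median on the log2 scale. For *Tns1* the count of 7 lower peaks stayed within these limits under all of them, with a lowest count of 5 with predicted starts added and a highest of 10 with protein-coding starts. Its count of higher peaks went from 0 to 2 with protein-coding starts only, and its median went from -0.42 to -1.17 for peaks within 100 kb and to -0.29 with predicted starts added. For the 8 other genes, the 6 lower and 4 higher peaks became 10 and 10 at 1.5-fold and 2 and 2 at 4-fold. Their higher peaks numbered 0 without the lowest 25% of peaks and 2 within 100 kb. For the partner list, the 22 lower and 17 higher peaks became 54 and 46 at 1.5-fold, 5 and 3 at 4-fold, and 13 and 4 without the lowest 25%. Its lower peaks numbered 36 with protein-coding starts and 36 when every peak over a gene was taken, and its higher peaks 10 with 3 normalized reads added and 10 with predicted starts. Raising means under 3 normalized reads to 3, chosen after seeing the data, moved none of these results beyond the limits. In the central 500 bp, peaks of the 9 genes holding a motif numbered 3 for the MEF2 box, 13 for AAGGTCA, 26 for CAGGTG, 24 for CATTCC and 6 for the CArG box, against 8, 34, 54, 58 and 17 over whole peaks. These are 4%, 17.3%, 34.7%, 32% and 8% of the 75, beside 2.58%, 11.3%, 28%, 26.4% and 2.58% of all peaks in that window.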
